A study of Bos taurus with 18 samples.

Results

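Toll-like receptors (TLRs) are membrane proteins that recognise molecules of microbes, and 9 of the 10 named by the symbols TLR1 to TLR10 had a row in the deposited count table, among 27270 genes. Members were matched to rows by symbol alone, but the family was chosen with earlier results of these data known. TLR2, TLR3, TLR4, TLR5, TLR6, TLR7, TLR8, TLR9 and TLR10 were matched, TLR1 was not, and all 9 matched genes were among the 22202 that passed the filter on low counts. Because 7506 genes of the table are named only by an identifier, TLR1 may be present without its symbol. The RNA came from rumen papillae, small outgrowths that line the rumen, of 9 non-lactating Holstein cows with a rumen cannula. Each cow was on a diet of 100% forage at baseline and then on grain feeding that held 65% concentrate. No group stayed on forage, so diet and time of sampling cannot be told apart in any comparison of grain with forage. The 4 groups were grain_PHY (4 libraries), grain_control (5), forage_PHY (4) and forage_control (5), where PHY is a supplement that the labels name only by these letters and control cows did not receive it. The labels do not say whether PHY was already fed when the forage biopsies were taken, give no age, and do not say which cow gave which library, so libraries were treated as independent although each cow gave material on both diets.

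Receptors of this family divide the work by ligand and by place. TLR2, paired with TLR1 or TLR6, binds bacterial lipoproteins, TLR4 binds lipopolysaccharide with the help of CD14 and LY96, and TLR5 binds flagellin, all at the cell surface. TLR3 recognises double-stranded RNA, TLR7 and TLR8 single-stranded RNA and TLR9 unmethylated CpG DNA, all inside endosomes, while the ligands of TLR10 are less clear. Signals pass through the adaptors MYD88 and TICAM1 to NF-kappaB and interferon regulatory factors, and in the rumen they concern an epithelium that lies against a dense microbial community.

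Receptor reads were few in every library. All 9 genes together held 191 to 719 reads per library, out of total reads of 3953060 to 15474300 in grain_PHY, 5433500 to 23949100 in grain_control, 18655800 to 34471700 in forage_PHY and 15809000 to 33935800 in forage_control. Levels are given below as CPM, read counts scaled to the effective library size, and as mean ± SD over libraries. Exonic lengths were not at hand, so no receptor is ranked against another.

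Reads on 144 olfactory receptor genes, a family largely silent outside the nose, also moved with diet and are given here because they bear on the receptors below. Their summed level was 42.1 to 345.3 CPM in grain_PHY, 32.9 to 168.6 CPM in grain_control, 20.8 to 32.2 CPM in forage_PHY and 16.3 to 65.0 CPM in forage_control. The 3 highest libraries were grain_PHY 1 at 345.3 CPM, grain_control 1 at 168.6 CPM and grain_control 4 at 125.4 CPM, and these also had the fewest reads. Markers of the stratified epithelium, the labelled tissue, were abundant in all libraries, with KRT5 at 2940 ± 1308 CPM on grain and 4035 ± 724 CPM on forage (SD, n = 9 each). Their summed level also moved with diet. It was 5621 to 19099 CPM in grain_PHY, 6842 to 21701 in grain_control, 19478 to 22324 in forage_PHY and 11205 to 29879 in forage_control. Grain_PHY thus lay below forage_PHY without overlap, but only by a narrow gap. Of the 22202 genes tested, 6659 had no overlap between these groups in either direction.

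The first question was how receptor levels in papillae on grain differed from those on forage, with both arms averaged. TLR10 and TLR7 were higher on grain and none of the 9 was lower. The edgeR quasi-likelihood test called 2 of 9 receptors, both higher, against 31.9% of all genes tested, of which 18.1% were higher and 13.8% lower. The receptors' share, 2 of 9, lies near that background and is no result about the family. The median log2 fold change was 0.61 for the 9 receptors and 0.20 for all genes. These medians depend on the genes and libraries kept, being 0.58 and 0.41 with no filter on low counts, 0.65 and 0.08 with a stricter one, and −0.13 and 0.03 with the olfactory receptor covariate described below. A call required an adjusted p (Benjamini-Hochberg) under 0.05. An unadjusted p below that value was seen for 3 of 9 receptors and for 50.3% of all genes tested.

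**Figure D1:**
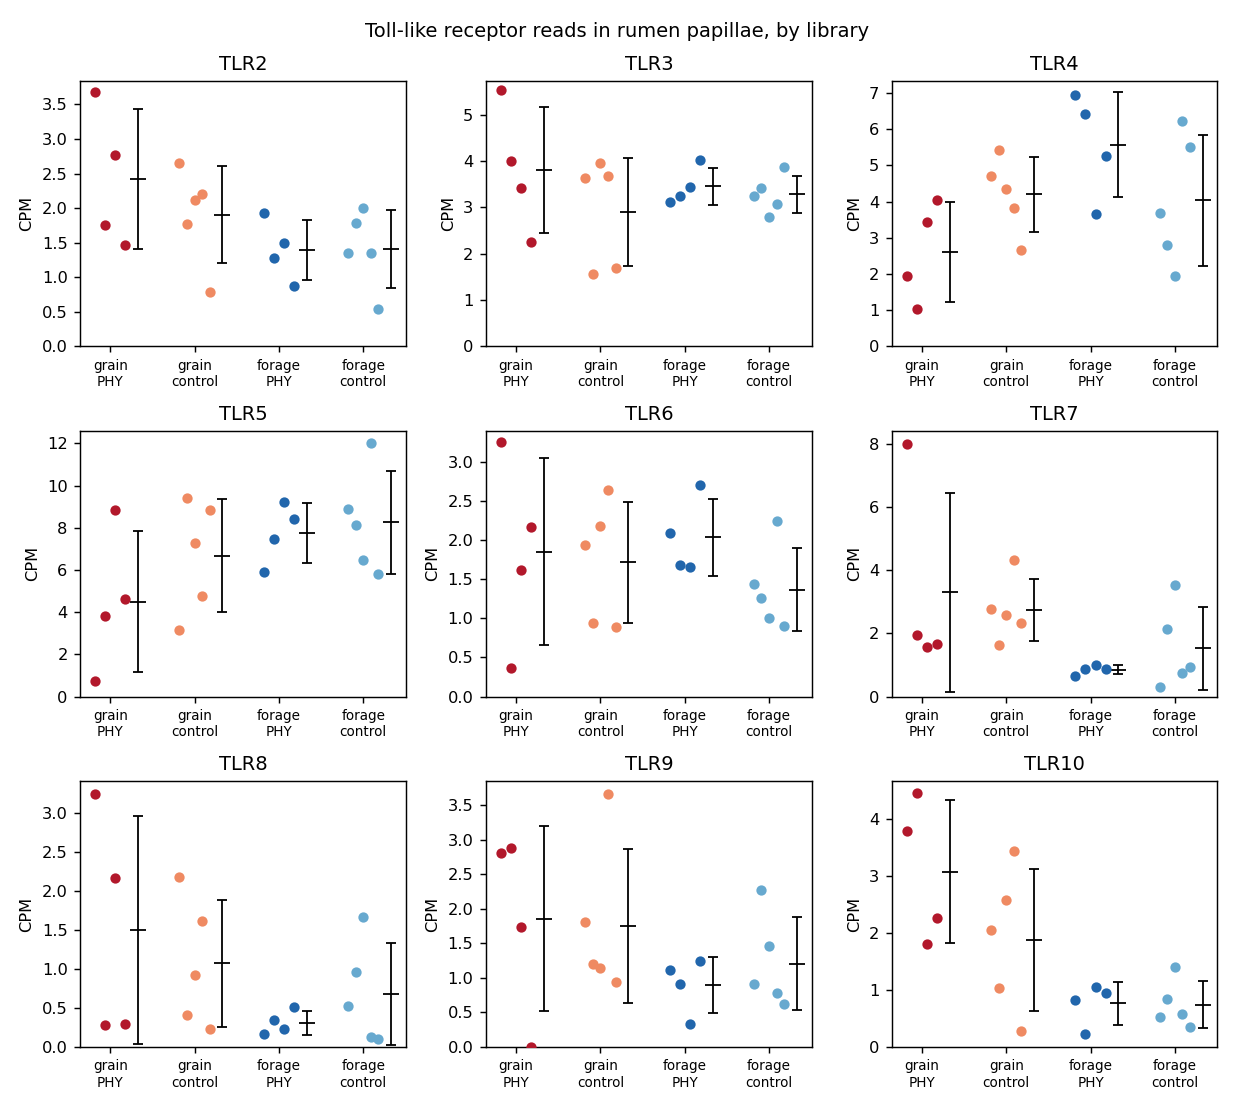
Levels of TLR2 to TLR10 in CPM (vertical axes, each with its own scale from 0) in every library (points) of grain_PHY, grain_control, forage_PHY and forage_control, with mean and SD beside the points. TLR7 reached 8.02 CPM in grain_PHY 1, and TLR9 was at 0 in grain_PHY 4.

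TLR10 (ENSBTAG00000014042) is known in humans mainly from B cells. Its level was 3.79, 4.45, 1.80 and 2.26 CPM in the 4 grain_PHY libraries and 2.06, 1.03, 2.58, 3.45 and 0.280 CPM in the 5 grain_control libraries. It was 0.824, 0.218, 1.05 and 0.951 CPM in forage_PHY and 0.528, 0.837, 1.40, 0.572 and 0.355 CPM in forage_control. Every grain_PHY library thus stood above every forage library of both arms, whereas grain_control overlapped with forage, its replicate 5 lying among the lowest. Against forage_PHY alone, every grain_PHY library was higher for 14.2% of all genes tested. The share of genes with grain_PHY above the forage libraries of both arms was not computed. Group means were 3.08 ± 1.25 CPM in grain_PHY, 1.88 ± 1.25 in grain_control, 0.761 ± 0.374 in forage_PHY and 0.738 ± 0.408 in forage_control. Over both arms TLR10 was 3.21-fold higher on grain (log2 fold change 1.68 ± 0.47 SE, edgeR adjusted p = 0.022). These levels rest on 6 to 48 reads per library on grain and 7 to 26 on forage. TLR10 and TLR6 are neighbours in RefSeq's table of the assembly ARS-UCD2.0, which lists TLR1 as a synonym of both. How reads shared by these related genes were counted is not given in the sources used here, so their split is uncertain.

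TLR7 (ENSBTAG00000022161), an endosomal sensor of single-stranded RNA, was at 8.02, 1.95, 1.56 and 1.67 CPM in grain_PHY and at 2.78, 1.65, 2.58, 4.33 and 2.34 CPM in grain_control. Its forage values were 0.665, 0.873, 0.997 and 0.878 CPM in forage_PHY and 0.302, 2.15, 3.53, 0.736 and 0.937 CPM in forage_control. All grain libraries of both arms stood above all forage_PHY libraries, and forage_control replicates 2 and 3 lay within the grain range. For grain_PHY alone, a level above every forage_PHY library was seen for 14.2% of all genes tested. The share of genes with the grain libraries of both arms above forage_PHY was not computed. The first grain_PHY library was far above the rest. Means were 3.30 ± 3.15 CPM in grain_PHY, 2.73 ± 0.987 in grain_control, 0.853 ± 0.138 in forage_PHY and 1.53 ± 1.31 in forage_control. TLR7 was 2.62-fold higher on grain over both arms (log2 fold change 1.39 ± 0.45 SE, edgeR adjusted p = 0.029).

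TLR8 (ENSBTAG00000031020), which lies next to TLR7 and senses the same kind of ligand, had a fold change of similar size that did not pass the test. Its level was 3.25, 0.278, 2.16 and 0.295 CPM in grain_PHY and 2.18, 0.411, 0.917, 1.61 and 0.234 CPM in grain_control. On forage it stood at 0.158, 0.343, 0.221 and 0.512 CPM in forage_PHY and at 0.528, 0.956, 1.67, 0.123 and 0.0969 CPM in forage_control. Libraries of both diets were spread over a wide range and overlapped in each arm. The log2 fold change over both arms was 1.47 ± 0.65 SE (edgeR adjusted p = 0.077). TLR8 had only 3 to 36 reads per library on grain and 3 to 25 on forage.

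TLR4 (ENSBTAG00000006240), the lipopolysaccharide receptor, had 1.95, 1.02, 3.43 and 4.03 CPM in grain_PHY and 4.71, 5.43, 4.36, 3.81 and 2.66 CPM in grain_control. It had 6.94, 6.42, 3.65 and 5.27 CPM in forage_PHY and 3.70, 2.81, 1.93, 6.21 and 5.49 CPM in forage_control. Grain_PHY lay below forage_PHY except that its replicate 4 passed forage_PHY 3, and the control groups overlapped widely. Means were 2.61 ± 1.37 CPM in grain_PHY, 4.20 ± 1.04 in grain_control, 5.57 ± 1.46 in forage_PHY and 4.03 ± 1.80 in forage_control. Over both arms the log2 fold change was −0.52 ± 0.28 SE (edgeR adjusted p = 0.13), which was not called.

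TLR5 (ENSBTAG00000000477), the flagellin receptor, had a negative fold change of the size seen for TLR4. It stood at 0.758, 3.80, 8.84 and 4.62 CPM in grain_PHY and 3.14, 9.42, 7.28, 4.76 and 8.83 CPM in grain_control. Forage values were 5.92, 7.45, 9.25 and 8.41 CPM in forage_PHY and 8.90, 8.13, 6.47, 12.02 and 5.81 CPM in forage_control. The lowest value, in grain_PHY 1, rests on 7 reads, and grain_PHY 2, grain_PHY 4, grain_control 1 and grain_control 4 also lay below every forage library, while the other 4 grain libraries lay within the forage range. Means were 4.50 ± 3.33 CPM in grain_PHY, 6.69 ± 2.68 in grain_control, 7.76 ± 1.43 in forage_PHY and 8.27 ± 2.44 in forage_control. The log2 fold change over both arms was −0.52 ± 0.28 SE (edgeR adjusted p = 0.13).

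The other four receptors did not pass the test. TLR2 (ENSBTAG00000008008), the lipoprotein receptor, averaged 2.42 ± 1.01 CPM in grain_PHY, 1.91 ± 0.699 in grain_control, 1.40 ± 0.440 in forage_PHY and 1.41 ± 0.557 in forage_control. Its log2 fold change over both arms was 0.61 ± 0.37 SE (edgeR adjusted p = 0.18). TLR6 (ENSBTAG00000014031), a partner of TLR2, averaged 1.85 ± 1.20 CPM in grain_PHY, 1.72 ± 0.773 in grain_control, 2.04 ± 0.489 in forage_PHY and 1.37 ± 0.535 in forage_control. Its log2 fold change was 0.09 ± 0.40 SE (edgeR adjusted p = 0.86). TLR3 (ENSBTAG00000008682), the sensor of double-stranded RNA, averaged 3.80 ± 1.36 CPM in grain_PHY, 2.90 ± 1.17 in grain_control, 3.45 ± 0.404 in forage_PHY and 3.28 ± 0.403 in forage_control. It had the fold change nearest to 0 among the 9, at −0.03 ± 0.26 SE on the log2 scale (edgeR adjusted p = 0.94). TLR9 (ENSBTAG00000018198), the CpG DNA sensor, averaged 1.86 ± 1.34 CPM in grain_PHY, 1.75 ± 1.12 in grain_control, 0.897 ± 0.402 in forage_PHY and 1.21 ± 0.676 in forage_control. Its log2 fold change was 0.79 ± 0.53 SE (edgeR adjusted p = 0.22). The single value of 0 among the 9 receptors was TLR9 in grain_PHY 4, where a floor of 3 reads allows a level of up to 0.295 CPM. The lowest forage_PHY value, 0.332 CPM in replicate 3, rests on 6 reads, so at this depth grain_PHY 4 cannot be told apart from that library. The other forage_PHY libraries, at 1.11, 0.904 and 1.24 CPM, lay well above the floor.

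For each of the 9 receptors, the libraries of groups next to each other in the order of mean level overlapped. Only TLR7 and TLR10 had any pair of groups that did not overlap, and for both this included grain_PHY and forage_PHY. Of the 22202 genes tested, 6659 had no overlap between these groups in either direction, so this is no particular trait of the receptors. The share of genes with any such pair of groups was not computed.

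**Figure D2:**
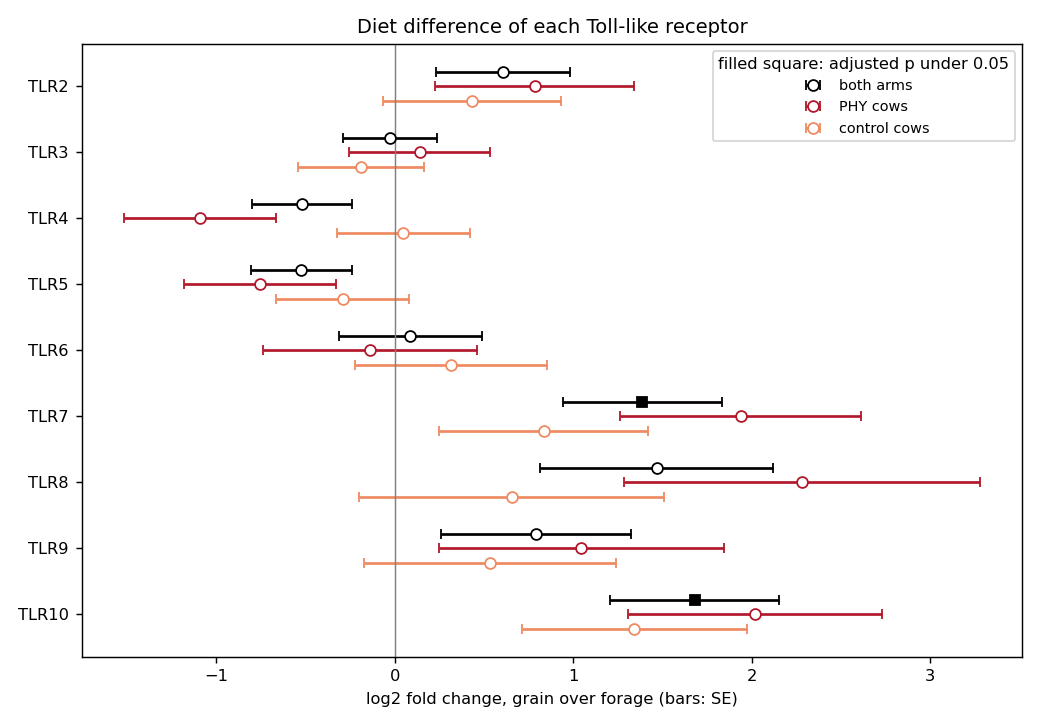
Log2 fold change of grain over forage (horizontal axis) for each receptor over both arms, in PHY cows and in control cows, with SE bars. Only TLR7 (1.39) and TLR10 (1.68) over both arms have filled squares, which mark an adjusted p under 0.05.

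The next question was whether the diet difference held within each arm. In PHY cows 0% of the 22202 genes were called by edgeR and no receptor was, although 8820 genes and 4 receptors had an unadjusted p under 0.05. The receptors' log2 fold changes in PHY cows ran from −1.09 ± 0.42 SE for TLR4 (edgeR adjusted p = 0.083) to 2.28 ± 0.997 SE for TLR8 (edgeR adjusted p = 0.10). TLR10 was at 2.02 ± 0.71 SE and TLR7 at 1.94 ± 0.68 SE on the log2 scale (edgeR adjusted p = 0.073 each). Both had every grain_PHY library above every forage_PHY library, which was so for 14.2% of all genes tested. DESeq2 called 5251 genes in PHY cows, with TLR7, TLR8 and TLR10 higher, and limma voom called 7924, with TLR8 and TLR10 higher and TLR4 lower.

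In control cows 0% of genes were called by edgeR, DESeq2 and limma voom called 0 as well, and 2518 genes had an unadjusted p under 0.05. TLR10 was the 1 receptor among them, with a log2 fold change of 1.34 ± 0.63 SE (edgeR adjusted p = 0.43). TLR7 was at 0.84 ± 0.58 SE and TLR8 at 0.65 ± 0.86 SE on the log2 scale, and TLR4 at 0.05 ± 0.37 SE. The lowest was TLR5 at −0.29 ± 0.37 SE.

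Whether the diet responses of the arms differed was tested as PHY minus control. It was called for 0% of genes by edgeR and for 0 by DESeq2 and limma voom, and 442 genes but no receptor had an unadjusted p under 0.05 in edgeR. The receptors ran from −1.14 ± 0.56 SE for TLR4 (edgeR adjusted p = 0.95) to 1.62 ± 1.29 SE for TLR8 on the log2 scale. The larger fold changes in PHY cows were therefore not shown to differ from those in control cows.

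Whether PHY changed receptor levels on a given diet was asked by setting PHY against control cows. On grain 0% of genes were called by edgeR and 0 by DESeq2 and limma voom, with 571 at an unadjusted p under 0.05 and no receptor among them. The receptors' log2 fold changes ran from −0.68 ± 0.41 SE for TLR4 to 0.72 ± 0.65 SE for TLR10. On forage too 0% were called by edgeR and 0 by both other tools, with 356 at an unadjusted p under 0.05 and again no receptor. The range there was −1.11 ± 0.94 SE for TLR8 to 0.57 ± 0.56 SE for TLR6. The share of all genes with an unadjusted p under 0.05 was 2.57% on grain and 1.60% on forage.

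Receptor levels also moved with the olfactory receptor reads of a library, within groups as well as between them. Over the 18 libraries, with log2 levels centred on their group means, the Pearson correlation with olfactory receptor CPM was 0.82 for TLR8, 0.73 for TLR2, 0.71 for TLR7, 0.62 for TLR9, 0.61 for TLR3 and 0.59 for TLR10. It was 0.34 for TLR6, −0.40 for TLR4 and −0.71 for TLR5. Receptor values are scaled to the effective library size and olfactory receptor values to total reads, so the points share library depth, and they are given as a description. Among the receptors themselves, TLR2 and TLR8 had a correlation of 0.73 and TLR5 and TLR7 one of −0.62, measured in the same way.

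**Figure D3:**
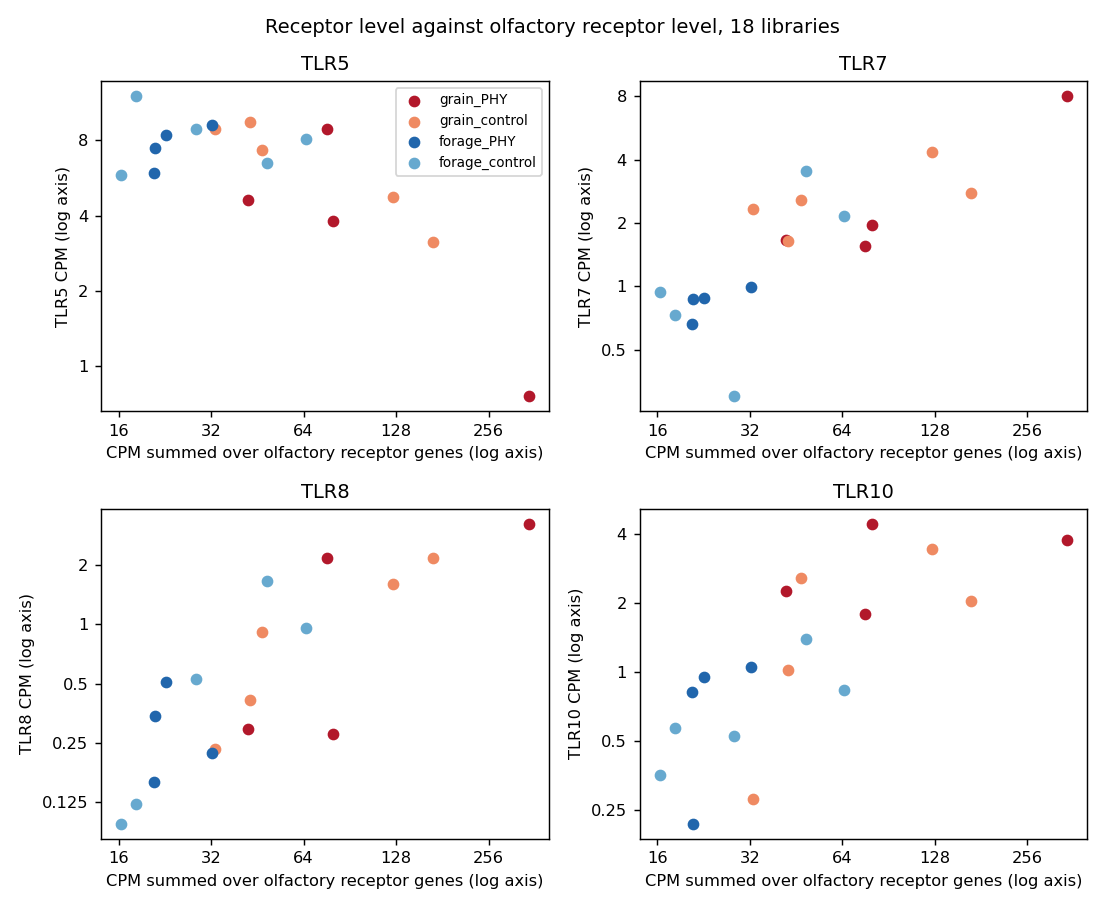
CPM of TLR5, TLR7, TLR8 and TLR10 (vertical, log axis) against CPM summed over 144 olfactory receptor genes (horizontal, log axis) in 18 libraries. The library at the far right, grain_PHY 1, has 345.3 CPM of olfactory receptor reads, the highest TLR7 (8.02 CPM) and the lowest TLR5 (0.758 CPM).

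With the log2 olfactory receptor level as a covariate, no receptor and no other gene was called over both arms. The log2 fold change of TLR10 was then 0.82 and that of TLR7 0.19, and 5 receptors changed sign, namely TLR2, TLR5, TLR6, TLR8 and TLR9. Because this level is itself higher on grain, the covariate and the diet cannot be fully told apart. Without the 3 libraries of the highest olfactory receptor level, TLR10 was at 1.40 (edgeR adjusted p = 0.19) and TLR7 at 0.79 (edgeR adjusted p = 0.32), and again no gene was called. Without grain_PHY 1 alone, 1 gene was called in all, TLR10 was at 1.64 (edgeR adjusted p = 0.063) and TLR7 at 0.94 (edgeR adjusted p = 0.12). TLR7 was also not called without grain_control 4 (edgeR adjusted p = 0.055), forage_PHY 1 (edgeR adjusted p = 0.061) or forage_PHY 2 (edgeR adjusted p = 0.054).

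**Figure D4:**
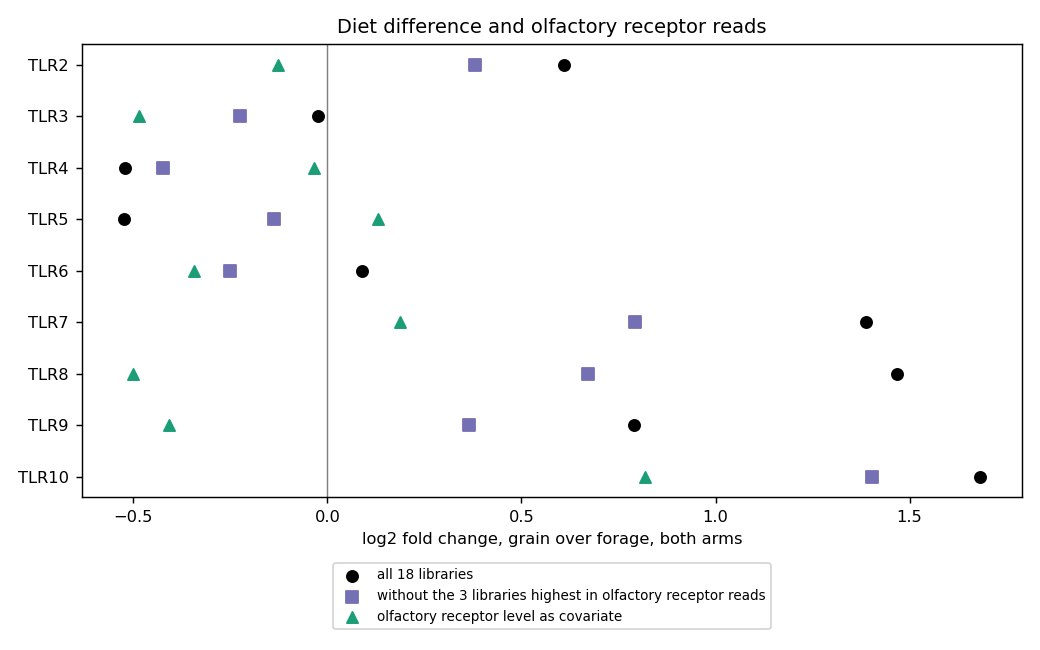
Log2 fold change of grain over forage over both arms (horizontal axis) for each receptor with all 18 libraries, without the 3 libraries highest in olfactory receptor reads, and with the olfactory receptor level as a covariate. TLR10 (1.68, 1.40 and 0.82) and TLR7 (1.39, 0.79 and 0.19) stay above 0 in all 3 fits. Neither was called without the 3 libraries or with the covariate. TLR8 lies below 0 with the covariate (−0.50).

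Markers of immune cells, some of which carry these receptors, were partly higher on grain, and their counts stand beside the 18.1% of all genes called higher and 13.8% called lower. Of 9 tested markers of B and plasma cells, 5 rose and none fell (median log2 fold change 1.41), among them MS4A1, the surface protein CD20, at 2.49 ± 1.61 CPM on grain and 0.944 ± 0.580 CPM on forage (SD, n = 9 each). Their summed level was 17.9 to 38.8 CPM in grain_PHY, 9.77 to 36.9 in grain_control, 9.47 to 13.02 in forage_PHY and 6.30 to 17.5 in forage_control, and CD79A and CD79B were each at 0 in 2 libraries. Of 13 tested markers of macrophages, monocytes and dendritic cells, 6 rose and none fell (median 0.72). FLT3, the growth factor receptor of dendritic cells, was at 6.23 ± 3.26 CPM on grain and 1.86 ± 1.03 CPM on forage. The summed myeloid level was 73.6 to 106.7 CPM in grain_PHY, 56.2 to 99.9 in grain_control, 48.0 to 62.5 in forage_PHY and 44.7 to 64.5 in forage_control, while the dendritic cell genes XCR1 and CLEC9A were at 0 in 5 and 1 libraries. T and NK cell markers had 3 of 9 higher (median 0.25, summed levels 20.6 to 49.7 CPM over all libraries), and neutrophil markers 2 of 5 (median 1.34), with ELANE at 0 in 3 libraries. The summed level of the neutrophil list had medians of 1921 CPM in grain_PHY, 2574 in grain_control, 3333 in forage_PHY and 3142 in forage_control. It was mostly S100A12, at 2188 ± 977 CPM on grain and 2990 ± 992 CPM on forage, so the sum describes this gene rather than neutrophils. No endothelial or fibroblast marker was called, of 6 each, and of 8 epithelial markers 1 rose (CRNN) and 3 fell (TP63, CDH1 and DSP). In bulk tissue, more cells of a type and more RNA per cell cannot be told apart, and the part of these cells or of the olfactory receptor reads in the receptors' fold changes was not tested.

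The rest of the pathway was described from 6 lists of 64 tested genes, of which 6 rose and 16 fell on grain over both arms, a share near the 31.9% of all genes called. None was called by edgeR in any of the other 5 comparisons. The median log2 fold change of the 64 genes was −0.27, against 0.20 for all genes and 0.61 for the receptors.

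The counts of each list below are likewise to be read against 18.1% of all genes higher and 13.8% lower. Among 11 co-receptors, chaperones and ligand carriers, 2 rose and 2 fell (median −0.22). LY86, which partners the TLR4-like receptor CD180, averaged 3.02 ± 2.86 CPM on grain and 1.07 ± 0.282 CPM on forage (log2 fold change 1.47 ± 0.48 SE, edgeR adjusted p = 0.031). LBP, which carries lipopolysaccharide to CD14, averaged 4.23 ± 1.41 CPM on grain and 2.58 ± 1.26 CPM on forage (log2 fold change 0.80, edgeR adjusted p = 0.042). UNC93B1, the chaperone that takes TLR3, TLR7 and TLR9 to endosomes, fell to 16.5 ± 5.66 CPM on grain, against 25.2 ± 6.45 CPM on forage (log2 fold change −0.60, edgeR adjusted p = 0.028). HMGB1, a nuclear protein that can act as a TLR ligand when released, also fell (log2 fold change −0.70, edgeR adjusted p = 0.025). The TLR4 co-receptors were not called, with CD14 at 7.77 ± 1.75 CPM on grain and 8.12 ± 2.48 CPM on forage (log2 fold change −0.07, edgeR adjusted p = 0.77) and LY96 at 3.07 ± 1.20 CPM on grain and 3.68 ± 1.31 CPM on forage (log2 fold change −0.33, edgeR adjusted p = 0.35).

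Of 6 adaptors, 1 rose and 1 fell (median 0.06). MYD88, which serves most TLRs but not TLR3, fell to 8.48 ± 1.62 CPM on grain, against 12.1 ± 2.43 CPM on forage (log2 fold change −0.53 ± 0.15 SE, edgeR adjusted p = 0.023). PIK3AP1, which links the receptors to PI3-kinase, rose (log2 fold change 0.94, edgeR adjusted p = 0.029). TICAM1, the adaptor of TLR3 and of endosomal TLR4, was at −0.61 on the log2 scale (edgeR adjusted p = 0.055). The bridging adaptors TIRAP and TICAM2 were at 0.09 and 0.02.

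Signal-transducing enzymes and transcription factors had called members that fell and none that rose, except that 1 enzyme was called higher with DESeq2, with its size factors, with the stricter filter, without grain_control 5 and without forage_control 3. Of 18 kinases, ubiquitin ligases and their partners 6 fell (median −0.35), among them the ubiquitin ligase TRAF6 (log2 fold change −0.48, edgeR adjusted p = 0.029), the TAK1 partner TAB1 (−0.61, edgeR adjusted p = 0.020) and the ubiquitin-conjugating partner UBE2V1 (−0.62, edgeR adjusted p = 0.023). IRAK4, the first kinase after MYD88, was at −0.18 (edgeR adjusted p = 0.30). Of 8 transcription factors 3 fell (median −0.32). RELA, the main activating subunit of NF-kappaB, fell to 22.1 ± 7.29 CPM on grain, against 39.1 ± 8.13 CPM on forage (log2 fold change −0.84 ± 0.19 SE, edgeR adjusted p = 0.020). IRF3, which acts after TICAM1, fell as well (log2 fold change −0.49, edgeR adjusted p = 0.032), while NFKB1 was at −0.33 (edgeR adjusted p = 0.11) and IRF7 at −0.31 (edgeR adjusted p = 0.23).

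Of 11 inhibitors of the pathway, 1 rose and 4 fell (median −0.29). OTULIN, an enzyme that takes apart linear ubiquitin chains, fell (log2 fold change −0.66, edgeR adjusted p = 0.023), as did TNIP1 (−0.58, edgeR adjusted p = 0.026) and TOLLIP (−0.58, edgeR adjusted p = 0.022), which restrain NF-kappaB and IRAK signalling. IL1RL1, the interleukin 33 receptor, rose (1.61, edgeR adjusted p = 0.045). SIGIRR was at −0.29 (edgeR adjusted p = 0.13) and TNFAIP3 at −0.24 (edgeR adjusted p = 0.17). Of 10 other pattern recognition receptors, 2 rose and none fell (median 0.24). NLRP3, the inflammasome sensor, averaged 6.08 ± 3.03 CPM on grain and 2.41 ± 1.21 CPM on forage (log2 fold change 1.36 ± 0.34 SE, edgeR adjusted p = 0.021). CLEC7A, the beta-glucan receptor, averaged 2.37 ± 0.961 CPM on grain and 0.932 ± 0.460 CPM on forage (log2 fold change 1.35, edgeR adjusted p = 0.029). None of the 64 genes was called with the olfactory receptor covariate, without the 3 libraries of the highest olfactory receptor level, or without grain_PHY 1.

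**Figure D5:**
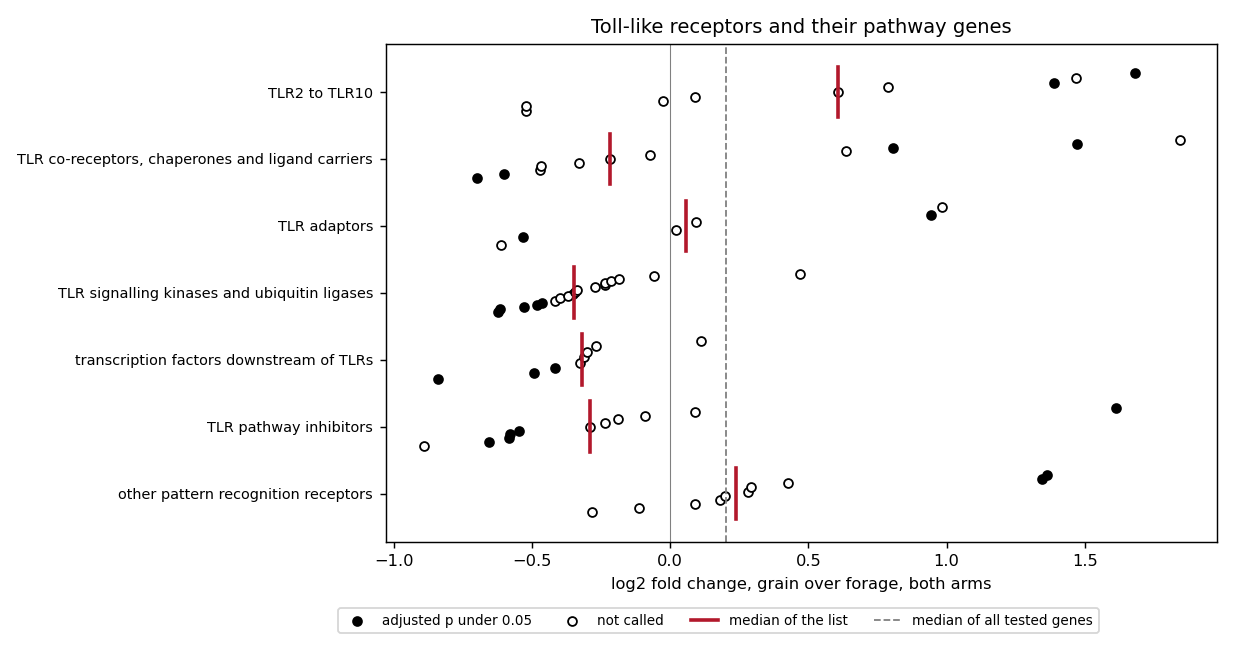
Log2 fold change of grain over forage over both arms (horizontal axis) for the 9 receptors and the 64 genes of 6 pathway lists. Filled points have an adjusted p under 0.05, red bars are list medians, and the dashed line is the median of all tested genes (0.20). In this fit the receptors have the highest median (0.61) and the list of kinases and ubiquitin ligases the lowest (−0.35). With the olfactory receptor covariate the order differs, with other pattern recognition receptors highest (0.18), adaptors lowest (−0.17) and the receptors at −0.13.

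Genes whose level followed a receptor most closely across the 18 libraries, centred on group means, were looked for among 15083 named genes whose mean reached 1 CPM. For TLR5 these were TMC4, PHC3 and CDC34 (each with Pearson r = 0.95). For TLR4 they were ACOT8 (r = 0.83), GLE1 and DUSP19 (both r = 0.80). For TLR3 they were KCNK2 (r = 0.88), ITGB8 and CDHR2 (both r = 0.82). These 3 receptors were taken by mean CPM, which also depends on transcript length and so does not order them by expression, and the correlations are descriptions over libraries that share depth.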

How the data were processed

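RNA from 18 samples of rumen papillae was made into libraries from 10 ng of total RNA with a stranded total RNA kit, per the labels' protocols. Whole-number counts of reads per Ensembl gene were deposited as one table. The deposited normalized signal equals these counts divided by a DESeq2 size factor per library and was used only as an alternative scaling. Per the submitters' processing notes, bcl2fastq 2.20 and DESeq2 were used and the build was bosTau9. Not given in the sources used here are the aligner, the counter, its strand setting and the annotation, so genes that overlap or resemble each other could share reads.

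Counts were tested with edgeR 4.0.16 (R 4.3.3; quasi-likelihood F test, robust, filterByExpr by group, TMM), with 1 mean per group over all 18 libraries and no covariate. P-values were adjusted over all 22202 genes tested (biological coefficient of variation 51.4%). The procedure was also run on simulated independent libraries with few changed genes. That run cannot show how it behaves with cows sampled on both diets or with many changed genes. CPM of receptors and other single genes used effective library sizes, and olfactory receptor CPM used total reads. Alternatives were DESeq2 1.42.0 and its size factors, limma voom (3.58.1) with quality weights, 2 other filters (none, or at least 1 CPM in at least 4 libraries), only the groups compared, the olfactory receptor covariate, libraries left out and thinning. The same alternatives for the pathway lists were added after seeing the data. Named genes were all members, 16 preset pathway genes, up to 2 called genes per list and direction, and the 3 genes most like each of 3 receptors (log2 CPM, prior count 2). The members, lists and markers were chosen with earlier results of these data known, and some list members are not reported here by name. P-values measure the spread between these libraries. No sequence or coordinate is given, since the RefSeq table used for names has a different build.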

Additional observations from a re-analysis of the deposited data

Results flagged for a closer look

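In 1 of the 36 receptor and group combinations examined, a single library stood far from the others. TLR7 was at 8.02 CPM in grain_PHY 1, and the gap to the nearest of the other 3 libraries was 0.940 of the whole range of the group. Chance alone flags about 1 in 20 groups of this size. The same library had the fewest reads (3953060) and the highest olfactory receptor level (345.3 CPM) of all 18, and what these have to do with its TLR7 level was not tested. Without it, the log2 fold change of TLR7 over both arms was 0.94 (edgeR adjusted p = 0.12).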

How the results depend on the processing

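Over both arms 2 receptors were called with DESeq2's size factors and with either other filter. All-gene counts there were 6613 of 22202 (size factors), 6924 of 26991 (no filter) and 6899 of 19775 (stricter filter). DESeq2 and limma voom each called 3 (TLR8 added), against 9302 of 22200 and 10149 of 22202 genes. In none of these settings was the receptors' share above that of all genes. After thinning 1 was called (TLR10, of 7 that then passed the filter), against 4039 of 15724 genes. With the olfactory receptor covariate, or without the 3 libraries of the highest olfactory receptor level, 0 were called. With single libraries left out the count ran from 0 to 3: it was 0 without grain_PHY 1, 1 (TLR10) without grain_control 4, forage_PHY 1 or forage_PHY 2, and 3 without grain_PHY 3 (TLR5 lower, log2 fold change −0.82), grain_control 5 or forage_control 3 (TLR8 higher). All-gene counts were 1 of 22479 without grain_PHY 1 and 3544 of 21635 without grain_control 4. They were 2150 of 23185 without forage_PHY 1 and 2860 of 23187 without forage_PHY 2. Where 3 receptors were called they were 6489 of 23079 (grain_PHY 3), 9587 of 22159 (grain_control 5) and 9053 of 22096 (forage_control 3). In PHY cows 3 receptors were called with DESeq2, against 5251 of 22200 genes, and 3 with limma voom, against 7924 of 22202. With only the groups compared 2 were called, against 4353 of 18103 genes. The other comparisons gave 0 under all alternatives. Among all genes 0 were called with the covariate, 0 without the 3 libraries, 4039 after thinning and 1 to 9587 with single libraries left out (2890 without grain_control 1, 3544 without grain_control 4, 2150 without forage_PHY 1, 2860 without forage_PHY 2, and 4525, 4489 and 4278 without forage_control 1, 4 and 5), against 7091; DESeq2 called 6238 higher and 3064 lower.

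Log2 fold changes that changed sign over both arms were, for TLR3, 0.073 (DESeq2's size factors), 0.021 (stricter filter), 0.064 (DESeq2) and −0.11 to 0.084 with single libraries left out, and for TLR6, −0.039 (limma voom), −0.34 (covariate), −0.25 (without the 3 libraries) and −0.085 to 0.25. With the covariate TLR2 was at −0.13, TLR5 at 0.13, TLR8 at −0.50 and TLR9 at −0.41. In control cows TLR5 was at 0.16 and TLR8 at −0.56 with the covariate and at 0.030 and −0.38 without the 3 libraries, and TLR4 ran from −0.12 to 0.26 with single libraries left out. In PHY cows TLR8 was at −0.44 with the covariate. Among pathway genes, CD14 was at 0.0100 with DESeq2's size factors, 0.011 with DESeq2, 0.27 (covariate), 0.096 (without the 3 libraries), 0.092 (thinned) and −0.16 to 0.035 with single libraries left out. TICAM2 was at −0.0023 (no filter), −0.070 (limma voom), −0.13 (covariate), −0.11 (without the 3 libraries) and −0.074 to 0.18 with single libraries left out, and TIRAP at −0.045 (limma voom) and −0.14 (covariate). With the covariate LY96 was at 0.30, IRAK4 at 0.12, NFKB1 at 0.17, IRF7 at 0.33, LY86 at −0.35 and IL1RL1 at −0.14, and after thinning IRAK4 was at 0.087 and SIGIRR at 0.013. The cause of these changes was not tested. With single libraries left out, 0 to 6 co-receptors, chaperones and ligand carriers were called, 0 to 4 adaptors, 0 to 9 kinases and ubiquitin ligases, 0 to 3 transcription factors, 0 to 5 inhibitors and 0 to 2 other pattern recognition receptors, and every list was at 0 without grain_PHY 1. For the kinases and ubiquitin ligases, the 6 falling calls were 2 after thinning, 1 without forage_PHY 1, 2 without grain_control 1, grain_control 4, forage_PHY 2 or forage_control 5, 3 without forage_PHY 3, forage_control 1 or forage_control 4, and 4 without grain_PHY 3; for the transcription factors the 3 were 1 after thinning and without grain_control 2, forage_PHY 1 or forage_control 5. LY86 was not called with limma voom (0.50, adjusted p = 0.26).

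With total reads as library sizes the mean of TLR2 in grain_PHY was 3.64 CPM and that of TLR3 5.62 CPM. Low read numbers limit all receptors. No paired analysis was possible because no label says which cow a library came from. The order of receptors per kilobase was not run, for want of transcript lengths.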
